A study of Homo sapiens with 6 samples.

Results

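The genes described here encode 10 proteins that act in the destruction of misfolded glycoproteins of the endoplasmic reticulum (ER), a process called glycoprotein ER-associated degradation. They were chosen by gene symbol as its mannosidases, lectins, ubiquitin ligase parts and deglycosylating enzyme. All 10 were found in the count table of 21503 genes and in the TPM table of 60233 genes, and all 10 were among the 19430 genes tested. RNA came from UMUC3, an established human bladder carcinoma line, after 14 days of orthotopic growth in the bladders of C57 nude mice. There were 3 control libraries and 3 libraries with knockdown of GANAB, which encodes the catalytic subunit of glucosidase II. The sources used here do not give the means of knockdown, the number of clones, the age of the mice or whether each library came from its own animal. The p-values therefore cover the spread among these libraries only, and that spread may be technical.

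N-glycans are attached to new proteins in the ER with terminal glucose and mannose residues. Glucosidases remove the glucose while the protein folds with the help of lectin chaperones. A glycoprotein that stays unfolded loses mannose to MAN1B1 and the EDEM proteins, and the exposed mannose is bound by the lectins OS9 and ERLEC1. These deliver it to the membrane ubiquitin ligase SYVN1 (HRD1) with its adaptor SEL1L and its partner HERPUD1. The ATPase VCP pulls the protein into the cytosol, where NGLY1 cuts off the glycan and the proteasome degrades the chain. Several of these genes, HERPUD1 among them, are known targets of the unfolded protein response.

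The 250 bases before the start of HERPUD1, SEL1L, EDEM1 and EDEM3 are shown first, because these 4 genes were the ones lowest in control library 2 among the controls. Sequences are those of RefSeq (GRCh38.p14), 5′ to 3′ on the strand of the gene. The RefSeq start lies inside the gene as GENCODE bounds it, so that 94, 8, 61 and 55 of the 250 bases (HERPUD1, SEL1L, EDEM1 and EDEM3) fall within the GENCODE gene. Capitals mark CCAAT and CCACG on either strand (ATTGG and CGTGG are their reverse complements) and, in HERPUD1, the whole of the match to ERSE-II. That of HERPUD1 lies at chr16:56931892-56932141 (plus strand), SEL1L at chr14:81533854-81534103 (minus strand), EDEM1 at chr3:5187457-5187706 (plus strand) and EDEM3 at chr1:184754859-184755108 (minus strand).
HERPUD1: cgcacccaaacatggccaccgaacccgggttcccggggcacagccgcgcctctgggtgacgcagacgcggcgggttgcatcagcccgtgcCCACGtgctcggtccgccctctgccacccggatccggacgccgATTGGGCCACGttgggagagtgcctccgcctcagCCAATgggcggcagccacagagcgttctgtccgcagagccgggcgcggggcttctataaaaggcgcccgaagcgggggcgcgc
SEL1L: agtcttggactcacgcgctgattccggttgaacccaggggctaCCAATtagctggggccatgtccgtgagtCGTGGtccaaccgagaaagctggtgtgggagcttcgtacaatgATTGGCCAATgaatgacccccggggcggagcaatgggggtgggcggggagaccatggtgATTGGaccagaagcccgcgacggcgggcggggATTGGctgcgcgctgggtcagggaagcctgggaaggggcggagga
EDEM1: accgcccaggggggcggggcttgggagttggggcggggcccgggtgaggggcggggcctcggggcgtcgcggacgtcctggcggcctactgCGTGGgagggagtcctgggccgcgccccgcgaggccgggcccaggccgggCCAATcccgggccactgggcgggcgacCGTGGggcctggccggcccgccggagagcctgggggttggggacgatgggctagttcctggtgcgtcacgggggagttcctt
EDEM3: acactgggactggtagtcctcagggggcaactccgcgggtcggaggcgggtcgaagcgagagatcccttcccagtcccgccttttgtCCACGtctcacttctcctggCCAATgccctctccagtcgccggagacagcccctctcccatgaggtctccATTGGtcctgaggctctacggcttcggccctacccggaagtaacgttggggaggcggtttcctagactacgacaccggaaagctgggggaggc

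Motifs were searched on both strands from 250 bases before to 50 bases after the start, for all 10 genes, each of which had an entry in the table (NGLY1 had 2). ERSE-II, an ER stress response element searched as ATTGG and CCACG with 1 base between them, was found in HERPUD1 alone of the 10, as ATTGGGCCACG beginning 117 bases before the start. Of all 35116 promoters in the table, 0.0541% held it. CARE (TGATGNAAN), an element bound by ATF4-type factors, was also found in HERPUD1 alone, on the minus strand, against 3.61% of all promoters. ERSE, searched as CCAAT and CCACG with 9 bases between them, and UPRE (TGACGTGG) were found in 0 of the 10 genes, against 0.0769% and 0.729% of all promoters. CCAAT by itself was present in 5 of the 10 (EDEM1, EDEM3, OS9, SEL1L and HERPUD1; 34.6% of all promoters), and CCACG in 9, all but EDEM2 (38.1% of all promoters). These short motifs overlap the longer ones, so the ERSE-II match of HERPUD1 also counts as CCAAT and CCACG. Only exact matches were counted. In HERPUD1 the CCAAT that begins 83 bases before the start is followed, after 9 bases, by CCACA rather than CCACG. A match describes the letters of this window only.

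Library totals ran from 11737837 to 40039584 estimated counts. MT-RNR2, a mitochondrial ribosomal RNA, took 17.45% of the counts of control library 1 and 1.776% to 2.023% of the knockdown libraries. The TMM factor of the TPM values was 0.692 in control library 1 and 1.02 to 1.11 in the other libraries. Levels are given below as CPM (TMM-normalized counts relative to library size), in the order of library 1, 2 and 3 of each group. The targeted GANAB was at 685, 825 and 661 CPM in control and 231, 238 and 231 CPM in knockdown, a log2 fold change of -1.63 (SE 0.141, edgeR adjusted p = 0.00239). Markers of the line were mixed: VIM, KRT8 and KRT18 were present, while KRT20 and UPK3A were listed at 0 and CDH1 stayed under 1 TPM in every library. Of 13 tested markers of urothelium and the line, 3 rose, against 4.59% of all genes. They were VIM, UPK1A and FOXA1 (edgeR adjusted p = 0.0206, 0.0251 and 0.0281). The sum of the list was 1327 to 2893 TPM in control and 4629 to 4690.3 TPM in knockdown libraries. VIM carried most of it, at 1147 to 2550 TPM in control and 4214 to 4277 TPM in knockdown libraries. In TPM, KRT7, KRT8, KRT18 and PPARG overlapped between groups, while UPK1B, UPK2 and GATA3 were higher in every knockdown library. Of 6 smooth muscle markers 4 rose (edgeR adjusted p under 0.05), against 4.59% of all genes. The sum of the 6 was 208 to 393 TPM in control and 873 to 938 TPM in knockdown libraries. The sum of 8 fibroblast markers was 9.10 to 46.1 TPM in control and 58.8 to 76.1 TPM in knockdown libraries, with LUM listed at 0. In CPM (TMM-normalized) the knockdown sums lay inside the control range, at 19.5 to 209.7 in control and 158.5 to 159.9 in knockdown libraries. Of 6 tested fibroblast markers 1 rose and none fell. The 6 endothelial markers summed to at most 2.55 TPM. The 9 leukocyte markers, of which CD68 carried most, summed to 55.9 to 211 TPM in control and 47.8 to 51.6 TPM in knockdown libraries. PTPRC, the common leukocyte antigen gene, stayed under 1 TPM. None of the 5 tested endothelial markers and none of the 5 tested leukocyte markers was called. The part of the host cells in the results below was not tested.

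None of the 10 genes passed the test between knockdown and control. By edgeR's quasi-likelihood test with Benjamini-Hochberg adjustment over all genes, 0 of 10 had an adjusted p under 0.05, against 8.31% of all genes tested (3.72% lower and 4.59% higher). At an unadjusted p under 0.05 there were 2, SYVN1 and NGLY1, against 26.0% of all genes (13.8% higher and 12.2% lower). By other tools, DESeq2 called 1 (NGLY1; 17.5% of all genes), limma-voom 1 (NGLY1; 12.1%) and limma-voom with sample quality weights 5 (EDEM1, HERPUD1 and NGLY1 lower, OS9 and SYVN1 higher; 19.1%). The median log2 fold change of the 10 was -0.14, against 0.033 for all genes. CPM values of control and knockdown did not overlap for 3 of the 10 (OS9, SYVN1 and NGLY1), against 37.6% of all genes (2 higher against 21.9% and 1 lower against 15.7%), so the share was near the background. On the deposited TPM scale, without TMM scaling, 2 of the 10 did not overlap (OS9 and EDEM1, both higher). Of all genes 24.9% were higher, 4.58% lower and 29.5% either. In bulk RNA, fewer cells of a type and less RNA per cell cannot be told apart.

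**Figure D1:**
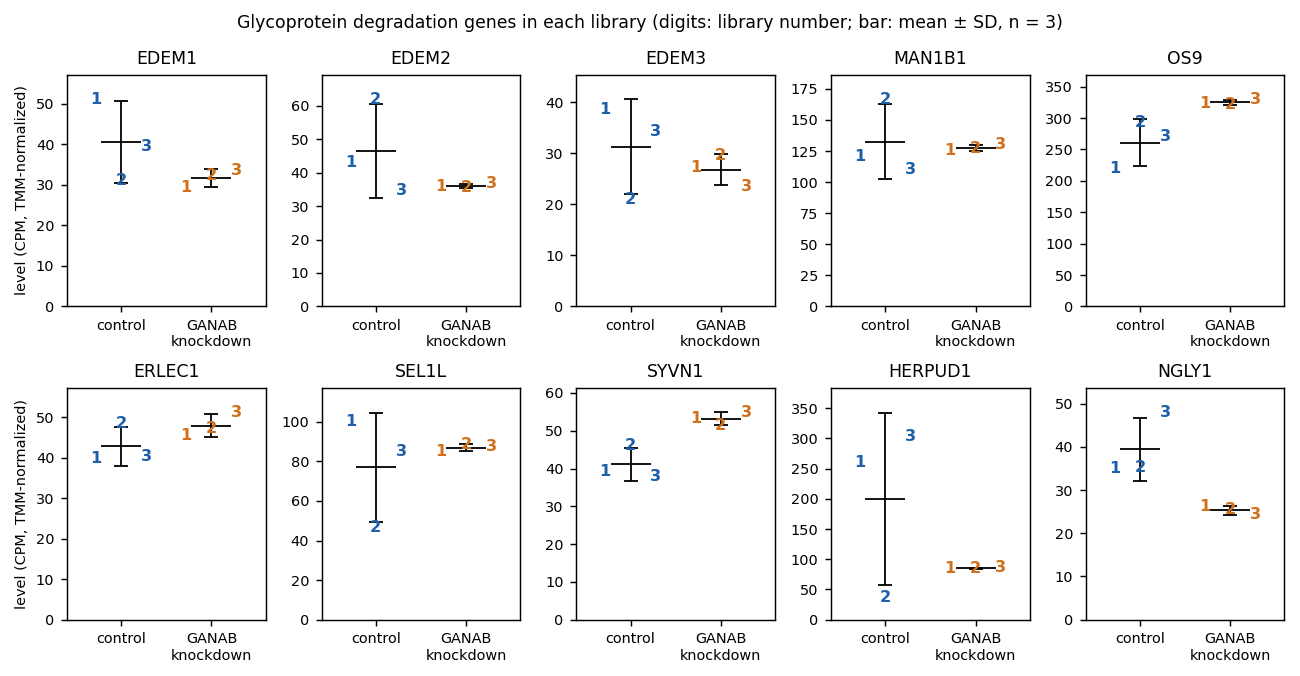
Level of each gene in TMM-normalized CPM (vertical axis, from 0) in 3 control (blue) and 3 GANAB knockdown libraries (orange). Digits are library numbers and bars are mean ± SD (n = 3). The knockdown libraries sit close together for all 10 genes, and control library 2 is the lowest or the highest control for 9 of them.

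NGLY1, the cytosolic enzyme that removes N-glycans from retrotranslocated proteins (ENSG00000151092; chromosome 3, 25718944 to 25790039, minus strand, GRCh38), had the smallest p of the 10. NGLY1 measured 35.1, 35.3 and 47.9 CPM in control against 26.1, 25.5 and 24.2 CPM in knockdown. Every knockdown library was below every control. The log2 fold change was -0.64 (SE 0.169, 95% interval -1.03 to -0.24, edgeR adjusted p = 0.0596), which puts the knockdown at 64.2% of control. It thus missed the threshold with all libraries and passed it when control library 2 was left out (log2 fold change -0.70, edgeR adjusted p = 0.00920). It also passed with a stricter filter of at least 5 CPM in 3 libraries (edgeR adjusted p = 0.0474; 15.3% of all genes called), where fewer genes were tested. On the deposited TPM scale the groups overlapped, with 15.1, 23.6 and 33.6 TPM in control and 17.9, 17.6 and 17.1 TPM in knockdown libraries. These TPM were not scaled by TMM. With that scaling, chosen after seeing the data, the log2 fold change of NGLY1 was -0.60 (limma adjusted p = 0.0844). NGLY1 overlaps the gene OXSM and 2 pseudogenes on the opposite strand, and whether counting used strand is not stated, so reads of the overlapping parts cannot be told apart.

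The mannosidase group held EDEM1, EDEM2, EDEM3 and MAN1B1, and none of the 4 passed. EDEM1 (ENSG00000134109), which speeds the trimming and extraction of misfolded glycoproteins, was at 51.0, 31.0 and 39.4 CPM in control against 29.2, 32.2 and 33.5 CPM in knockdown. Control library 2 lay within the knockdown range and the other two controls above it. Its log2 fold change was -0.36 (95% interval -0.82 to 0.11, edgeR adjusted p = 0.312), and -0.52 without control library 2, where it passed (edgeR adjusted p = 0.0229). EDEM3 (ENSG00000116406), another mannose-trimming member of the family, was at 38.7, 20.9 and 34.3 CPM in control against 27.3, 29.5 and 23.5 CPM in knockdown. It had a log2 fold change of -0.23 (95% interval -0.79 to 0.34, edgeR adjusted p = 0.617), and without control library 2 it passed at -0.45 (edgeR adjusted p = 0.0349).

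EDEM2 and MAN1B1 ran the other way among the controls. EDEM2 (ENSG00000088298), which starts mannose removal, was at 43.0, 61.9 and 34.6 CPM in control against 36.0, 35.6 and 36.8 CPM in knockdown. The knockdown values of EDEM2 lay inside the control range, and the log2 fold change was -0.37 (95% interval -0.87 to 0.14, edgeR adjusted p = 0.340) with all libraries and -0.10 without control library 2. MAN1B1 (ENSG00000177239), the alpha-1,2-mannosidase that trims glycans early in the pathway, was at 121, 167 and 110.2 CPM in control against 126, 127 and 130.5 CPM in knockdown. Its log2 fold change was -0.054 (95% interval -0.46 to 0.36, edgeR adjusted p = 0.887), an interval that spans 0.725 to 1.28 times control.

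Both lectins had positive log2 fold changes. OS9 (ENSG00000135506), the more abundant one, was at 219.7, 293 and 270.0 CPM in control against 324, 321 and 329.9 CPM in knockdown. All knockdown values were above all controls, on the TPM scale too (84.4, 167 and 161 against 198, 198 and 204 TPM). The log2 fold change of OS9 was 0.32 (SE 0.146, 95% interval -0.023 to 0.66, edgeR adjusted p = 0.220), and 0.41 without control library 2, where it passed (edgeR adjusted p = 0.0221). ERLEC1 (ENSG00000068912), also called XTP3-B, was at 39.8, 48.4 and 40.4 CPM in control against 45.4, 47.2 and 51.1 CPM in knockdown. These ranges overlapped (log2 fold change 0.16, 95% interval -0.17 to 0.49, edgeR adjusted p = 0.526). ERLEC1 shares its locus with ASB3 on the opposite strand. Per length, OS9 exceeded ERLEC1 in every library, by 5.81 to 7.01 times in control and 6.96 to 7.69 times in knockdown libraries.

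The ligase SYVN1 and its adaptor SEL1L did not move alike across the control libraries. SYVN1 (ENSG00000162298), the ubiquitin ligase itself, was at 39.3, 46.1 and 37.9 CPM in control against 53.2, 51.3 and 54.8 CPM in knockdown. All 3 knockdown values exceeded all 3 controls. The log2 fold change was 0.37 (SE 0.135, 95% interval 0.055 to 0.68, edgeR unadjusted p = 0.0271, adjusted p = 0.134), and 0.46 without control library 2, where it passed (edgeR adjusted p = 0.00549). SYVN1 overlaps FAU on its own strand and MRPL49 on the other, which limits how its reads can be assigned. SEL1L (ENSG00000071537), which links the lectins to the ligase, was at 99.9, 46.5 and 84.8 CPM in control against 85.1, 88.4 and 87.3 CPM in knockdown. Control libraries 1 and 3 and the knockdown libraries lay together, and control library 2 was at 0.504 times the mean of controls 1 and 3. The log2 fold change of SEL1L was 0.17 (95% interval -0.44 to 0.78, edgeR adjusted p = 0.732) and -0.086 without control library 2.

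HERPUD1 was the gene of widest spread. HERPUD1 (ENSG00000051108; chromosome 16, 56932048 to 56944863, plus strand), a ubiquitin-like membrane protein that is made during ER stress and joins the ligase complex, measured 259.8, 36.9 and 303 CPM in control. In knockdown it measured 84.4, 84.5 and 86.0 CPM. The knockdown values thus lay inside the control range, far below 2 controls and above the third. The highest control was 8.22 times the lowest, while the highest knockdown library was 1.02 times the lowest. Of 7813 tested genes with a mean of at least 20 CPM in control, 0.832% had a control ratio as large as that of HERPUD1. The log2 fold change was -1.23 (SE 0.631, 95% interval -2.71 to 0.24, edgeR adjusted p = 0.268). Without control library 2 it was -1.72 (edgeR adjusted p = 5.43e-05), and without control library 1 or 3 it was -0.996 or -0.85 and did not pass (edgeR adjusted p = 0.420 and 0.466). On the TPM scale HERPUD1 was at 204, 47.4 and 418 TPM in control and at 106, 102 and 102 TPM in knockdown libraries. It made up 48.3%, 10.8% and 53.6% of the summed TPM of the 10 genes in control libraries 1, 2 and 3, and 19.3% to 21.4% in knockdown libraries.

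**Figure D2:**
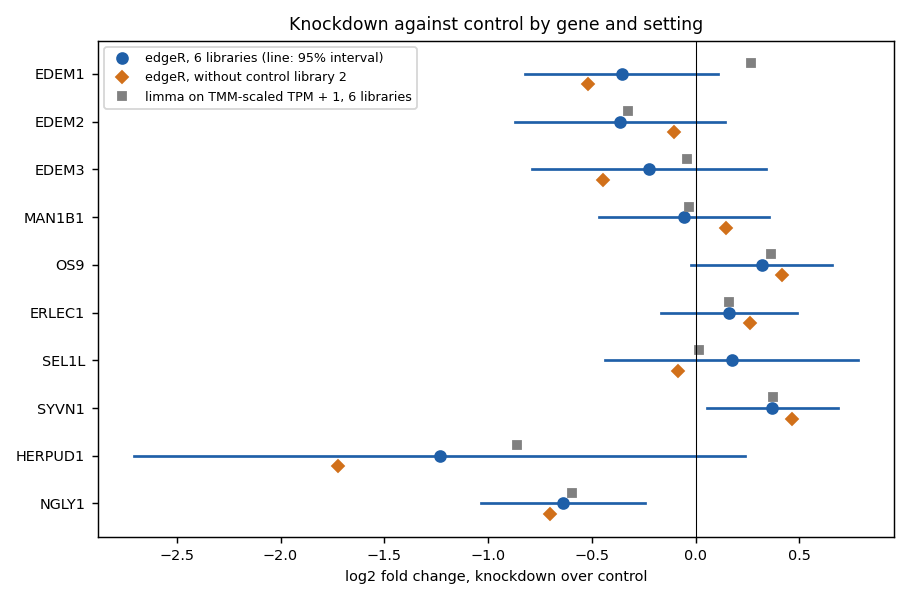
Log2 fold change of knockdown over control (horizontal axis) for each gene. Circles with lines are the edgeR estimate from 6 libraries and its 95% interval, diamonds the estimate without control library 2, and squares a limma estimate on TMM-scaled TPM. The intervals of NGLY1 and SYVN1 alone lie on one side of 0, and HERPUD1 has the widest interval (-2.71 to 0.24).

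Of the libraries left out in turn, only control library 2 changed the edgeR calls of the 10 genes. Without it, 6 of the 10 genes passed, 4 lower (EDEM1, EDEM3, HERPUD1 and NGLY1; 13.8% of all genes were called lower) and 2 higher (OS9 and SYVN1; 13.9% called higher), and 27.7% of all genes were called in either direction. Leaving out any other library gave 0 of the 10, with 7.89% and 8.66% of all genes called without control library 1 or 3 and 0.311%, 0.575% and 0.44% without knockdown library 1, 2 or 3. Control library 2 was the lowest control for 4 of the 10 genes (HERPUD1, SEL1L, EDEM1 and EDEM3), against 38.6% of all genes. It was the highest control for 5 (EDEM2, MAN1B1, OS9, ERLEC1 and SYVN1), against 37.8% of all genes. The coefficient of variation was wider in control than in knockdown libraries for all 10 genes, against 90.8% of all genes. It was 10.7% to 71.4% in control and 1.03% to 11.3% in knockdown libraries for the 10. The medians over all genes were 35.2% and 8.89%.

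The sensors and factors of the unfolded protein response were read for the same pattern. Of the 12 genes none passed between knockdown and control (2 at an unadjusted p under 0.05, against 26.0% of all genes; median log2 fold change -0.0073), and the 2 of smallest p were CREB3L2 (log2 fold change 0.83, edgeR adjusted p = 0.0828) and ATF6B (0.38, edgeR adjusted p = 0.171). Control library 2 was the lowest control for 9 of the 12, against 38.6% of all genes. The next genes were picked after their values were seen. DDIT3, which encodes the stress-induced factor CHOP, was at 122, 28.8 and 143 CPM in control against 92.5, 94.1 and 92.5 CPM in knockdown. XBP1, the factor activated by the sensor ERN1, was at 76.6, 35.9 and 98.8 CPM in control against 54.9, 49.5 and 49.5 CPM in knockdown. DNAJB9, an ER co-chaperone gene from the list of ligase partners, was at 77.9, 14.0 and 78.1 CPM in control against 48.3, 51.5 and 48.7 CPM in knockdown. As for HERPUD1, the knockdown values of these 3 genes lay between control library 2 and the other two controls. Of the 12 sensors and factors 3 had this order (DDIT3, XBP1 and EIF2AK3), and of the 10 degradation genes 2 had it (HERPUD1 and EDEM3), against 7.97% of all genes. In the list that holds DNAJB9, 2 of 14 tested genes had it (SELENOK and DNAJB9). Control library 2 was the lowest control for 6 of those 14 and the highest for 7. Controls 1 and 3 were on average 4.62 times control library 2 for DDIT3, 3.18 times for EIF2AK3 and 3.21 times for ERN1, the genes of 2 sensor kinases, and 7.63 times for HERPUD1. These are values of 1 library and have no replicate check.

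**Figure D3:**
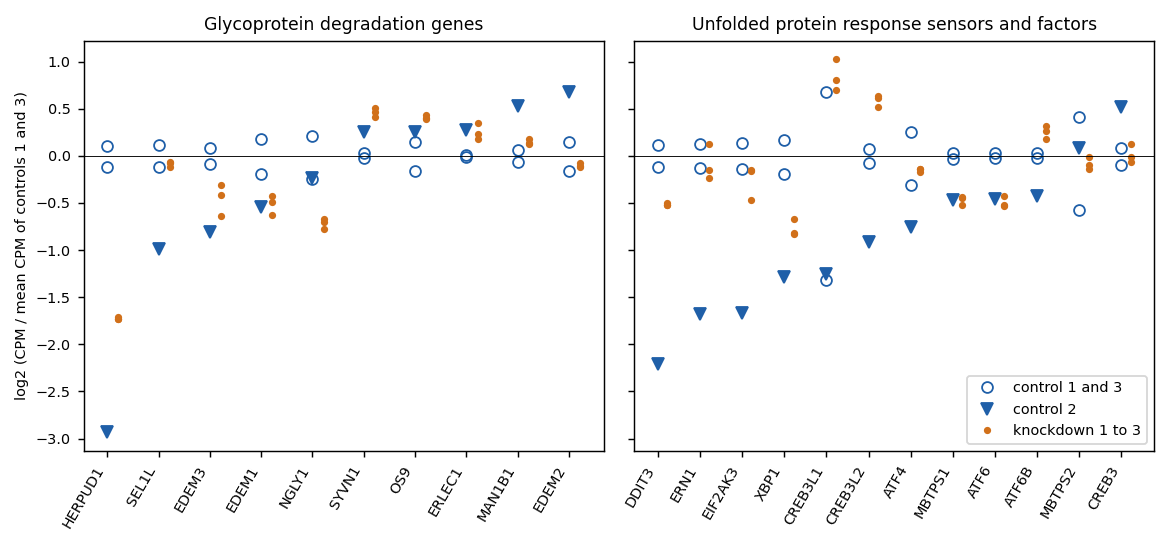
Log2 of the CPM in each library over the mean CPM of control libraries 1 and 3, for the 10 degradation genes (left) and 12 sensors and factors of the unfolded protein response (right), ordered by control library 2. Open circles are controls 1 and 3, triangles control 2 and dots the knockdown libraries. Control 2 is lowest for HERPUD1 and DDIT3, and the knockdown dots of both lie between control 2 and the other controls.

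Levels per gene length were compared on the deposited TPM scale. In the knockdown libraries OS9 was highest (200.1 ± 3.43 TPM, SD, n = 3), followed by HERPUD1 (103 ± 2.31 TPM) and MAN1B1 (66.2 ± 6.59 TPM), and the ranges of these 3 did not overlap. SYVN1 (28.4 ± 3.52 TPM), ERLEC1 (27.7 ± 1.84 TPM) and EDEM2 (27.1 ± 0.341 TPM) overlapped each other in turn. SEL1L (18.0 ± 3.42 TPM) and NGLY1 (17.5 ± 0.414 TPM) overlapped too, and EDEM1 (11.97 ± 4.02 TPM) and EDEM3 (7.19 ± 1.20 TPM) came last. In control libraries HERPUD1 had the highest mean (223 ± 186 TPM) with a range that overlapped that of OS9 (137 ± 46.1 TPM), and only OS9 and MAN1B1 (59.6 ± 21.7 TPM) stood apart from each other among neighbours. EDEM3 was again last (6.48 ± 2.36 TPM). The mannose-trimming EDEM1 and EDEM3 were the least abundant of the set in both groups.

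Ratios between partners within a library were compared by exact 2-sided permutation tests, in which 3 against 3 libraries cannot give a p below 0.1. The ratio of SYVN1 to SEL1L in TPM was 0.888, 3.49 and 0.605 in control against 2.06, 1.40 and 1.38 in knockdown (log2 difference 0.36, exact permutation p = 0.8). Among the controls, control library 2 alone exceeded the knockdown values, and SYVN1 exceeded SEL1L in every knockdown library. The ratio of OS9 to ERLEC1 differed by 0.20 on the log2 scale (exact permutation p = 0.2), with overlapping groups. EDEM1 to EDEM2 differed by 0.63 and EDEM1 to EDEM3 by 0.34 on the log2 scale (exact permutation p = 0.4 and 0.6). Over these 4 ratios the adjusted p of the permutation test was 0.8 for each. The difference for OS9 to ERLEC1 (0.20) was larger than the SD of either group (0.140 in control and 0.0793 in knockdown, log2 scale, n = 3), while the other differences were smaller than the control SD.

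EDEM1 gave opposite signs on the 2 scales. In deposited TPM it was at 9.04, 6.50 and 8.55 in control and at 9.19, 10.1 and 16.6 in knockdown libraries. Every knockdown library was thus above every control, while the log2 fold change of EDEM1 in the count fit was -0.36. The highest control was library 1, whose TMM factor of TPM was 0.692 against 1.02 to 1.11 in the other libraries. The order is therefore given for unscaled TPM only. In the limma fit of log2(TPM + 1) the log2 fold change of EDEM1 was 0.49 (limma adjusted p = 0.392), where the median of all genes was 0.23, and with TPM scaled by TMM, a setting chosen after seeing the data, it was 0.27 (limma adjusted p = 0.659). The counts behind 1 TPM differed between libraries for this gene. Relative to the median library of the gene, and after scaling so that the median of 11173 genes with at least 50 counts in each library did not move, they were 1.06, 1.33 and 1.34 in control and 0.919, 0.946 and 0.584 in knockdown libraries. Counts per TPM follow the effective length of the transcripts to which reads were assigned. The annotation lists 2 coding transcripts of EDEM1, of 1363 and 6146 bases, and an antisense gene overlaps it. Of the 11173 genes, 3.24% had a library as low as knockdown library 3 for EDEM1. EDEM3 reached 1.37 in control library 1, the highest of the 10 genes. It too changed sign between the count fit (log2 fold change -0.23) and log2(TPM + 1) (0.16). With TPM scaled by TMM it was -0.042, the sign of the count fit. SEL1L varied as well, from 0.658 in control library 3 to 1.29 in control library 2, while EDEM2 stayed within 0.986 to 1.00 and ERLEC1 within 0.979 to 1.01. Which transcripts were present was not tested.

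**Figure D4:**
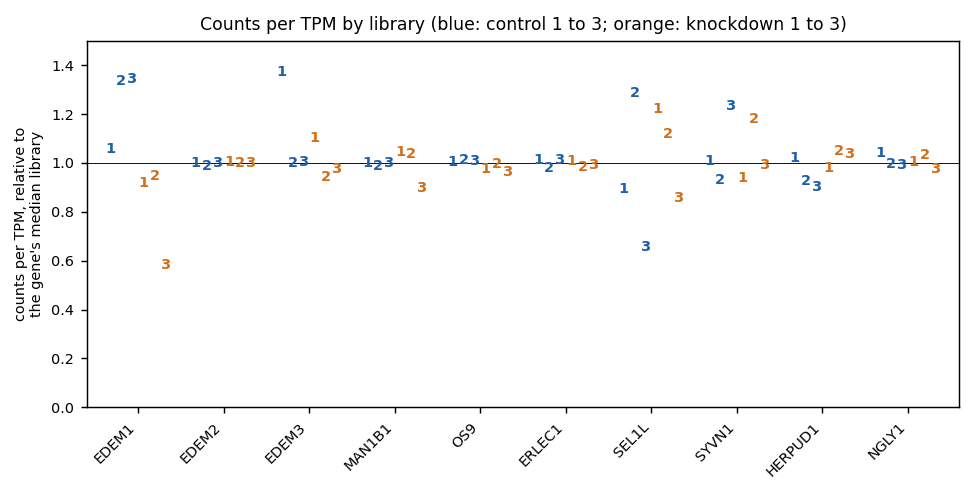
Counts per TPM in each library relative to the median library of the gene (vertical axis, 1 at the median), for control libraries (blue digits) and knockdown libraries (orange digits). EDEM1 ranges from 0.584 to 1.34, SEL1L from 0.658 to 1.29 and EDEM3 up to 1.37, while EDEM2 and ERLEC1 stay near 1.

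Other genes of the pathway were read from lists of 65 genes, of which 63 were tested. Of these, 3 rose and 2 fell (edgeR adjusted p under 0.05; 4.59% and 3.72% of all genes), so the shares were near the background. Those that rose were ENGASE, MAN2C1 and MAN1C1, and those that fell were FAF1 and PRKCSH. None of these 5 calls held when any 1 of the knockdown libraries was left out (edgeR adjusted p between 0.132 and 0.227). Without control library 2 all 5 held, without control library 1 only PRKCSH did (edgeR adjusted p = 0.0346), and without control library 3 MAN2C1 and MAN1C1 did not (edgeR adjusted p = 0.0913 and 0.0583). In the limma fit of log2(TPM + 1) only ENGASE held (limma adjusted p = 0.0129), with FAF1 at 0.203, MAN2C1 at 0.174, MAN1C1 at 0.197 and PRKCSH at 0.427. With TPM scaled by TMM, a setting chosen after seeing the data, ENGASE, FAF1 and PRKCSH held (limma adjusted p = 0.0258, 0.0217 and 0.0465). MAN2C1 and MAN1C1 did not hold there (limma adjusted p = 0.072 and 0.212).

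ENGASE and MAN2C1 act beside NGLY1 on glycans in the cytosol. ENGASE, an endoglycosidase that trims free glycans released from proteins, was at 22.03, 26.9 and 11.8 CPM in control against 56.2, 50.3 and 49.8 CPM in knockdown. It rose 2.56-fold (log2 fold change 1.36, SE 0.283, edgeR adjusted p = 0.0300), with no overlap between groups. MAN2C1, the cytosolic mannosidase that works on the same free glycans, was at 38.8, 54.0 and 40.9 CPM in control against 73.0, 73.1 and 71.2 CPM in knockdown and rose 1.62-fold (log2 fold change 0.70, SE 0.159, edgeR adjusted p = 0.0395). Of the 9 genes in this list of cytosolic handling 2 rose and none fell (4.59% and 3.72% of all genes; median log2 fold change 0.14). MAN2C1 also missed the threshold with DESeq2's size factors in edgeR (edgeR adjusted p = 0.0545).

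Of 10 genes listed under extraction from the membrane 1 fell and none rose (3.72% and 4.59% of all genes), and the median log2 fold change was -0.31. A place in this list does not say whether a gene helps or hinders extraction. At an unadjusted p under 0.05 (edgeR) there were 5, all lower, against 12.2% of all genes. FAF1, a cofactor of VCP that binds ubiquitin, was at 116, 95.3 and 174 CPM in control against 69.8, 62.3 and 67.3 CPM in knockdown and fell 1.93-fold (log2 fold change -0.95, SE 0.226, edgeR adjusted p = 0.0448). The following genes did not pass and were named after their values were seen. VCP, the ATPase, was at 407, 420.0 and 383 CPM in control against 288, 299 and 292 CPM in knockdown (log2 fold change -0.46, edgeR adjusted p = 0.0570). NPLOC4, one of its adaptors, had a log2 fold change of -0.54 (edgeR adjusted p = 0.0520) and UFD1, the other, -0.45 (edgeR adjusted p = 0.107). In VCP, NPLOC4 and UFD1 the highest knockdown CPM was below the lowest control CPM (15.7% of all genes). On the deposited TPM scale the groups overlapped for all 3, with VCP at 131, 205 and 196 TPM in control against 131, 147 and 145 TPM in knockdown. These TPM were not scaled by TMM, whose factor was 0.692 in control library 1 and 1.02 to 1.11 in the other libraries. The overlap is therefore no clear limit on the count result. SVIP was at 10.6, 16.4 and 9.96 CPM in control against 4.94, 6.60 and 6.60 CPM in knockdown (log2 fold change -1.03, edgeR adjusted p = 0.0617). Its knockdown values were below all controls on the TPM scale too (4.58% of all genes).

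Of 14 tested channel components, conjugating enzymes and partners of the ligase none passed, with 3 at an unadjusted p under 0.05 (26.0% of all genes) and a median log2 fold change of 0.0073. FAM8A1, a partner of SYVN1, was at 24.9, 24.1 and 28.8 CPM in control against 37.2, 37.7 and 37.6 CPM in knockdown (log2 fold change 0.53, SE 0.139, edgeR adjusted p = 0.0573). DERL1, of the retrotranslocation channel, had a log2 fold change of 0.44 (edgeR adjusted p = 0.0983). Of 10 other ligases of the ER membrane none passed (1 at an unadjusted p under 0.05, against 26.0% of all genes; median log2 fold change 0.066), with RNF170, the one of smallest p, at 0.42 (edgeR adjusted p = 0.172).

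Of 8 tested relatives by domain 1 rose and 1 fell (4.59% and 3.72% of all genes; median log2 fold change 0.0035). PRKCSH, the beta subunit of glucosidase II, which shares the mannose-binding domain of OS9 and ERLEC1, was at 361, 468 and 367 CPM in control against 232, 219 and 233 CPM in knockdown and fell 1.75-fold (log2 fold change -0.81, SE 0.148, edgeR adjusted p = 0.0218). In deposited TPM the groups of PRKCSH overlapped, at 186, 379.7 and 286 in control against 186, 190.0 and 196 in knockdown. With TPM scaled by TMM the log2 fold change of PRKCSH was -0.75 (limma adjusted p = 0.0465). MAN1C1, a Golgi mannosidase of the same family as MAN1B1 and the EDEM proteins, rose 3.24-fold from 1.41 ± 0.302 to 4.63 ± 1.31 CPM (SD, n = 3; edgeR adjusted p = 0.0388). This call at a low level was also lost by limma-voom (limma adjusted p = 0.0516), with quality weights (limma adjusted p = 0.124) and on TMM-scaled TPM (log2 fold change 0.69, limma adjusted p = 0.212). MAN1A1, its Golgi paralogue, was noted after its values were seen. It measured 120.3, 3.00 and 113 CPM in control against 6.15, 4.63 and 6.17 CPM in knockdown, with control library 2 again apart (log2 fold change -3.80, edgeR adjusted p = 0.0701).

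**Figure D5:**
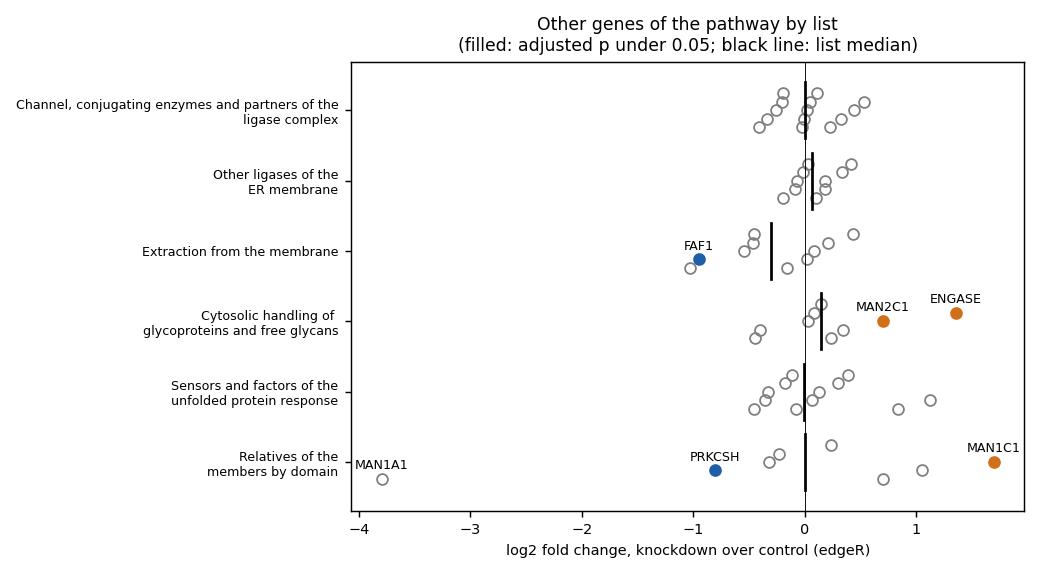
Log2 fold change of knockdown over control (horizontal axis, edgeR) for the tested genes of each list (rows). Filled circles passed at an adjusted p under 0.05 and black lines are list medians. ENGASE, MAN2C1 and MAN1C1 lie to the right and FAF1 and PRKCSH to the left, and the list of membrane extraction has the lowest median (-0.31).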

How the data were processed

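The series holds bulk RNA-seq of 6 libraries, 3 control and 3 with GANAB knockdown. Per the labels' protocols, 200 ng of TRIzol-extracted total RNA entered library preparation. The tools named per the submitters' processing notes are Salmon, fastp and DESeq2, with build GRCh38. The sources used here name no version, strand setting, annotation release or removal of mouse reads. Knockdown columns carry a knockout abbreviation and were matched to the labels by group and number, which left 0 value columns unmapped. The authors deposited estimated counts per gene, whole numbers that rounding left as they were, and TPM values, which are scaled for transcript length and to the same total in each library. Every listed gene had at least 15 counts in total.

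The members, lists and tests were chosen with earlier results of these data known. Estimated counts were tested with edgeR 4.0.16 (R 4.3.3; quasi-likelihood, filterByExpr, TMM, no covariate, 2-sided, Benjamini-Hochberg at 0.05) after 2073 genes were filtered out. Standard errors were derived from the F statistic. Alternatives were other scalings and filters, limma 3.58.1, DESeq2 1.42.0, TPM, a replicate block and leaving out each library. Partner ratios had exact permutation tests. The fits were tested on simulated data. Named genes were GANAB, the 10 members, and of each list up to 6 that passed or otherwise the 2 of smallest p; exceptions are stated, and 1 gene that the rule names is not reported here. Coordinates and overlaps are from GENCODE (GRCh38).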

Additional observations from a re-analysis of the deposited data

How the results depend on the processing

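Over all genes, 1614 were called. The count was 3676 by DESeq2, 3716 by limma-voom with quality weights, 566 with the replicate block, and 828, 526 and 46 in the limma fits of log2(TPM + 1), log2(TPM + 0.1) and log2(TPM + 1) without a filter. Higher calls were 892 of 1614 in the edgeR fit, 751 of 828 on log2(TPM + 1) and 652 of 1090 on TMM-scaled TPM. The count was 62 to 5604 when 1 library was left out (5604 without control library 2; 62, 115 and 88 without knockdown library 1, 2 or 3). Members called lower were 0 in the edgeR fit of all libraries, 1 by DESeq2, 1 by limma-voom, 1 with at least 5 CPM in 3 libraries, 3 with quality weights, and 0 to 4 with 1 library left out. Members called higher were 0, 2 with quality weights and 0 to 2 with 1 library left out. Same-numbered libraries did not deviate together (correlations of -0.00418, -0.0124 and 0.0193). With 3 libraries in each group these values cannot show whether the numbers pair the libraries. With the replicate block the members called stayed at 0, while FAF1, MAN2C1, MAN1C1 and PRKCSH missed the threshold and ENGASE held. Over the named genes and their alternatives, 292 values kept direction and call, 26 gained a call, 45 lost one and 14 turned sign. No sign turned in a gene called by the edgeR fit of all libraries, and no turned value was itself called. EDEM1 and EDEM3, which turned in TPM fits, were called lower without control library 2, and EDEM1 also with quality weights. MAN1B1 turned to 0.086 with quality weights, 0.21 in each TPM fit without TMM, and 0.15 without control library 2 (left-out range -0.22 to 0.15). SEL1L turned to -0.037 with quality weights and -0.086 without control library 2 (range -0.086 to 0.39). EDEM1 was 0.49, 0.53 and 0.49 and EDEM3 0.16, 0.19 and 0.16 in the TPM fits with 1 added, 0.1 added and no filter. On TMM-scaled TPM, a setting chosen after seeing the data, EDEM1 was 0.27 and EDEM3 -0.042, the latter with the sign of the count fit. The ratio of SYVN1 to SEL1L turned to -0.15 without control library 3, and those of EDEM1 to EDEM2 and to EDEM3 to -0.0058 and -0.14 on the CPM scale. Left-out libraries gave log2 differences of -0.15 to 1.11 for SYVN1 to SEL1L. Each of the 10 genes had at least 397 counts in every library, and the part of depth in the calls was not tested.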
